A study of Mus musculus with 16 samples.

Results

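The comparison described here was between 2 groups of whole mouse skin labelled day 1, over all genes. One had topical sodium dodecyl sulfate (SDS) with Topsym and the other SDS without it. Its members were chosen by title: the 2 libraries of SDS day 1 with Topsym and the 2 libraries of SDS day 1, 4 of the 16 libraries of the series. SDS is a detergent that irritates skin. Topsym is a brand of fluocinonide, a potent skin glucocorticoid, which is background knowledge and not stated in the labels. All 4 libraries were made from total RNA of whole skin of mice aged 7 weeks, and 4 days of topical treatment are labelled although the titles reach from day 0 to day 5. What the labels share between both groups is SDS, and no title names a day 1 group without it. Strain, sex, dose, vehicle and body site are not stated in the sources used here. Nor is when SDS and Topsym were given relative to each labelled day, or what the day 0 group with Topsym had been given by then. Nothing labels replicates as separate mice. Each p-value below rests on the spread between 2 libraries a group, estimated jointly over all 8 groups of the series, and that spread may be technical.

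A glucocorticoid binds its receptor in the cytoplasm, and the bound receptor moves to the nucleus, where it switches on genes such as Fkbp5, Per1 and Tsc22d3 and holds back genes driven by NF-kB and AP-1. In skin this dampens cytokines, chemokines and antigen-presenting cells, and over longer use it thins the epidermis and the dermis. A detergent strips lipids from the barrier, and keratinocytes answer with alarmins, stress keratins and chemokines.

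The 4 libraries held 21199889 to 27069555 recovered reads and 22975 to 23528 detected genes, and 2.39 to 2.75% of their reads came from the mitochondrial genome. Values are normalised reads. Differences are Topsym minus none on the scale of log2(normalised reads + 1), with a standard error (SE) and the p of limma adjusted over all genes tested. This scale understates changes of low genes. The skin label was checked against its markers in all 4 libraries. The keratinocyte genes Krt5 and Krt10 stood at 94023 to 112908 and 129801 to 139009 normalised reads, the fibroblast gene Col1a1 at 39872 to 61932, the fat gene Adipoq at 1029 to 1177 and the muscle gene Acta1 at 68271 to 108428, so that the samples held fat and striated muscle beside epidermis and dermis. In such bulk tissue, fewer cells of a type and less RNA per cell cannot be told apart. Positions are on mouse genome GRCm38.

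Of 19189 genes tested, 1881 (9.80%) passed the threshold of an adjusted p of 0.05 with limma. With Topsym 1058 were higher (5.51%) and 823 were lower (4.29%), and the median difference of all genes tested was 0.00. The differences were small for most of these genes: 143 of the higher and 75 of the lower ones differed at least 2-fold (218 in all, 1.14%). The median size of the difference over all genes tested was 0.186 on the log2 scale. The number called rested on all 4 libraries, since 999 genes passed without SDS_D1 replicate 1, 1260 without SDS_D1 replicate 2, 921 without SDS_D1_Topsym replicate 1 and 924 without SDS_D1_Topsym replicate 2. At the other days, where the libraries are different ones, 4230 genes (22.0%) passed at day 0, 8401 (43.8%) at day 3 and 8976 (46.8%) at day 5. The plot of level against difference shows the shape of the comparison.

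**Figure D1:**
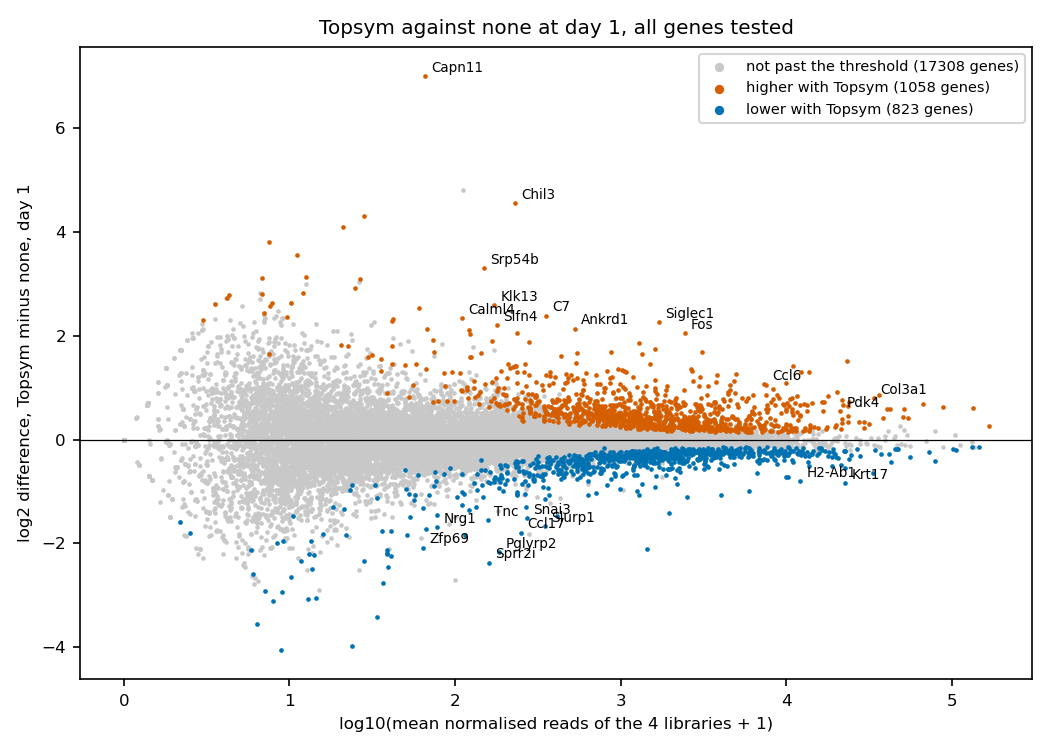
Each point is 1 of the 19189 genes tested, placed by the log10 of its mean normalised reads + 1 over the 4 libraries and by its log2 difference, Topsym minus none, at day 1. The 1058 genes higher with Topsym are orange, the 823 lower ones blue and the rest grey, and labelled genes are among those the text names.

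Leading genes had to pass the threshold, to average 100 or more normalised reads in the higher group and to have groups that did not overlap. Separate groups were thus required of all leading genes and are no further result. The largest rises with Topsym among them, of which 14 are described, held macrophage and interferon genes (Chil3, Siglec1, Slfn4, Ifi206, Oas3 and Fcgr4), genes of stressed or regenerating muscle and of early stimulation (Ankrd1, Myod1 and Fos), and single genes of the epidermis and dermis (Klk13 and C7). Chil3, which encodes a chitinase-like protein secreted by macrophages and neutrophils (chromosome 3, 106147554 to 106167564), stood at 17.5 and 18.5 normalised reads without Topsym and 441 and 445 with it (log2 4.55, SE 0.23, adjusted p = 3.34e-09). Siglec1, the sialic acid receptor of macrophages also called CD169 (chromosome 2, 131069220 to 131086765), stood at 555 and 629 normalised reads without Topsym and 2832 and 2831 with it (log2 2.26, SE 0.23, adjusted p = 5.59e-06). In both genes the libraries of each group lay close together and far from those of the other group. Fos, a subunit of the AP-1 transcription factor and an immediate early gene (chromosome 12, 85473890 to 85477273), stood at 1031 and 863 normalised reads without Topsym and 3982 and 3896 with it (log2 2.06, SE 0.09, adjusted p = 6.99e-10). Fcgr4, an activating Fc receptor of macrophages, stood at 48.6 and 46.2 normalised reads without Topsym and 194 and 198 with it (log2 2.03, SE 0.28, adjusted p = 0.000115), and the groups did not overlap.

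The epidermal kallikrein gene Klk13, which encodes a serine protease of the stratum corneum (chromosome 7, 43712567 to 43727534), stood at 43.7 and 52.0 normalised reads without Topsym and 269 and 319 with it (log2 2.59, SE 0.16, adjusted p = 2.37e-08). C7, a component of the terminal complement complex that dermal fibroblasts express, stood at 151 and 83.1 normalised reads without Topsym and 618 and 563 with it (log2 2.39, SE 0.32, adjusted p = 8.61e-05). In both genes the Topsym libraries lay well above the others. Capn11, a calpain gene known mainly from testis, had 0 reads in both libraries without Topsym and 137 and 120 normalised reads with it, at least 95.05-fold higher by a floor of 3 reads over the group. Srp54b, a gene of the signal recognition particle with near copies beside it on chromosome 12, stood at 20.4 and 27.7 normalised reads without Topsym and 401 and 148 with it (log2 3.30, SE 0.76, adjusted p = 0.00986). The Topsym libraries of Srp54b were themselves far apart, its call was lost without SDS_D1 replicate 1, without SDS_D1_Topsym replicate 1 and with a robust variance prior, and reads could be shared with the copies. Calml4, a calmodulin-like gene, rose by 2.34. The call was also lost for Ifi206, an interferon-inducible gene with close relatives (175 and 213 normalised reads with Topsym), without SDS_D1 replicate 1 and without either Topsym library.

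The 15 largest falls held genes of antigen-presenting cells and inflammation (Ccl17, Cd83 and Tnfsf15), genes of the epidermis and its defence (Sprr2i, Pglyrp2, Slurp1, Wfdc21, Alox12e and Psors1c2), and the wound matrix gene Tnc. Ccl17, a chemokine of dendritic cells that draws Ccr4-bearing T cells (chromosome 8, 94810453 to 94812036), stood at 389 and 382 normalised reads without Topsym and 115 and 106 with it (log2 -1.79, SE 0.37, adjusted p = 0.00427). Its call was lost without SDS_D1_Topsym replicate 2. Sprr2i, a small proline-rich protein of the cornified envelope whose reads can be shared with other Sprr2 genes (chromosome 3, 92407991 to 92409271), stood at 308 and 228 normalised reads without Topsym and 47.4 and 53.4 with it (log2 -2.37, SE 0.20, adjusted p = 8.63e-07). Slurp1, a secreted Ly6-type protein of keratinocytes, stood at 531 and 523 normalised reads without Topsym and 153 and 181 with it (log2 -1.66, SE 0.12, adjusted p = 1.13e-07). All 3 genes had the Topsym libraries well below the others.

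Alox12e, an epidermal lipoxygenase (chromosome 11, 70315610 to 70322628), stood at 2854 and 2817 normalised reads without Topsym and 1067 and 1058 with it (log2 -1.42, SE 0.11, adjusted p = 1.84e-07). Pglyrp2, an amidase that cuts bacterial peptidoglycan, stood at 305 and 295 normalised reads without Topsym and 53.2 and 82.0 with it (log2 -2.17, SE 0.30, adjusted p = 0.000134). Psors1c2, a gene of the psoriasis susceptibility region, stood at 3565 and 3294 normalised reads without Topsym and 1588 and 1601 with it (log2 -1.10, SE 0.06, adjusted p = 3.56e-09). None of these groups overlapped, which the choice of leading genes required. Tnc, which encodes tenascin C of the wound matrix (chromosome 4, 63959785 to 64047015), stood at 204 and 266 normalised reads without Topsym and 94.1 and 66.5 with it (log2 -1.55, SE 0.15, adjusted p = 2.45e-06). Nrg1, an ErbB receptor ligand, fell by 1.68, and Wfdc21, a whey acidic protein gene of activated epidermis, by 1.47. The other falls were those of Zfp69 (-2.08), Snai3 (-1.51), Upk3b (-1.35), Tnnt2 (-1.15), Tnfsf15 (-1.45) and Cd83 (-1.29). For Cd83, a surface protein of mature dendritic cells, and for Upk3b, the call was lost without any of the 4 libraries in turn, and for Tnfsf15 without each of 3 of them, all but SDS_D1_Topsym replicate 2.

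**Figure D2:**
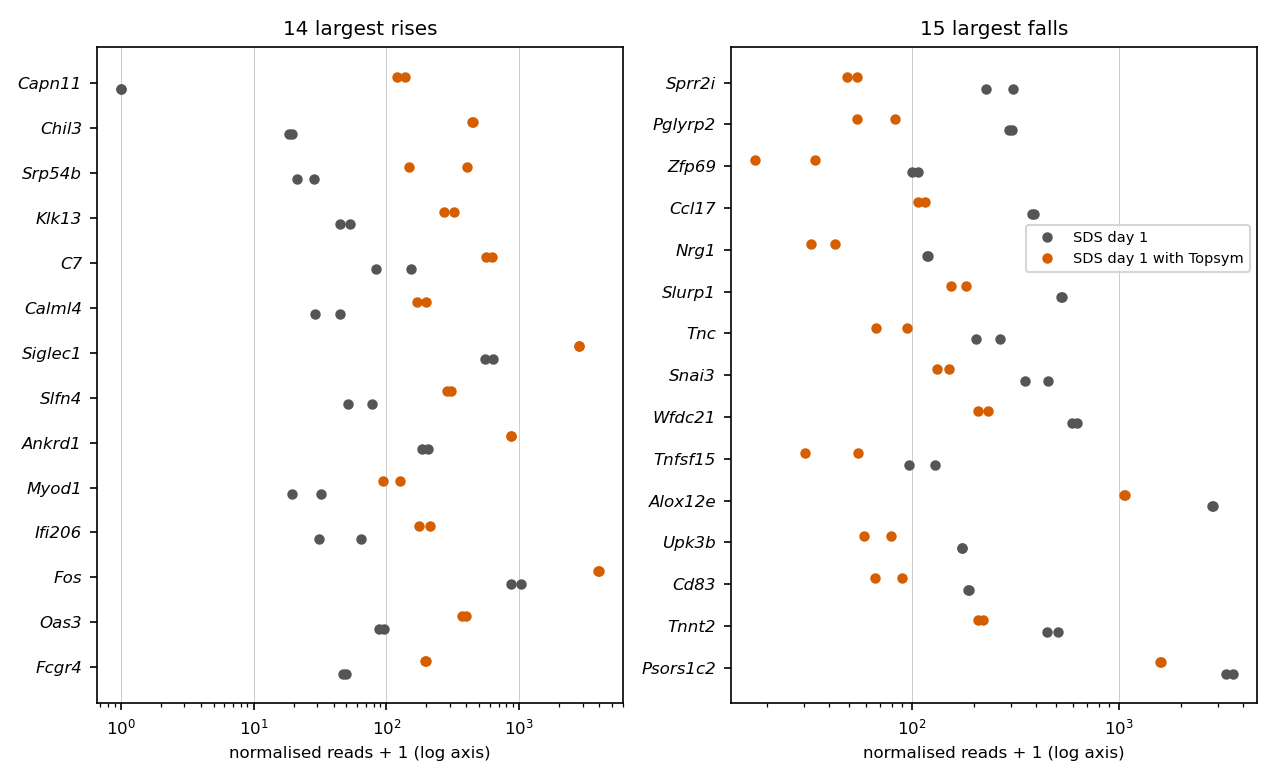
Each point is 1 library, on a log axis of normalised reads + 1, for the 14 largest rises (left) and the 15 largest falls (right) with Topsym at day 1, without Topsym in grey and with it in orange. In every gene shown both points of one group lie beyond both points of the other, which the choice of these genes required, and the spread within a group is widest in Srp54b.

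Of 26 glucocorticoid target genes tested, 6 were higher and 2 lower with Topsym at day 1 (median log2 0.11, beside 0.00 for all genes tested). Fewer members passed in each direction without each library in turn. Every list count here and below stands beside 5.51% higher and 4.29% lower among all genes tested. Where called genes are said here or below to have separate groups, the call already made that likely. Such separation describes the values and is no further result. A count of 1 or 2 members is given as a description and not as a result about its list. Dusp1, a phosphatase that shuts off MAP kinases (chromosome 17, 26505590 to 26562128), stood at 3160 and 3113 normalised reads without Topsym and 5671 and 5785 with it (log2 0.87, SE 0.06, adjusted p = 5.27e-08). Pdk4, a kinase that keeps pyruvate out of the citric acid cycle (chromosome 6, 5483351 to 5496309), stood at 17079 and 17311 normalised reads without Topsym and 25104 and 25147 with it (log2 0.55, SE 0.11, adjusted p = 0.00309). Zfp36, which speeds the decay of cytokine messengers, rose by 0.40. Dusp1 and Zfp36 are also immediate early genes, a group described below. Bcl6, a transcriptional repressor, fell by 0.24, with a call that was lost without any 1 of the 4 libraries in turn.

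Core targets of the receptor differed by small amounts between the groups. Fkbp5, a chaperone that feeds back on the receptor, stood at 10914 and 10833 normalised reads without Topsym and 12105 and 12164 with it (log2 0.16, SE 0.04, adjusted p = 0.0231). Its call was lost without any 1 of the 4 libraries and with edgeR on recovered reads. Tsc22d3, which encodes the anti-inflammatory protein GILZ, stood at 13305 and 13027 normalised reads without Topsym and 12032 and 11926 with it (log2 -0.14, adjusted p = 0.134), Per1 at log2 -0.16 (adjusted p = 0.071) and Zbtb16 at 0.16. Per1 was called lower with TMM scaling and with both count tests on recovered reads. Without Topsym, Fkbp5, Tsc22d3 and Pdk4 stood higher at day 1 than at day 0, where Fkbp5 had 2246 and 2206 normalised reads. Tsc22d3 had 6206 and 6786 at day 0 of SDS alone, and Pdk4 688 and 588. Whether these levels bear on the differences at day 1 was not tested. Nr3c1, the glucocorticoid receptor gene, stood at 1868 and 1882 normalised reads without Topsym and 1862 and 1924 with it and overlapped (log2 0.01, adjusted p = 0.971). Of 15 receptor, chaperone and steroid enzyme genes tested (median log2 0.07) 1 was higher and 0 lower, the coactivator gene Ncoa1 (log2 0.24), and that call was lost without any 1 of the 4 libraries.

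Promoters from RefSeq (GRCm38.p6, 250 bases before to 50 after the start) were matched to 12990 of the 19189 genes tested. The glucocorticoid response element, spelled GNACA and TGTNC with any 3 bases between them, was searched on both strands and stood in 59 of these genes (0.454%), in 6 of 816 called higher (0.735%) and in 5 of 602 called lower (0.831%). Of all 32851 promoters 156 held it (0.475%). It was found for 3 of 22 matched glucocorticoid targets, Fam107a, Sgk1 and Mt1, and for none of the 8 matched targets that were called. The promoter of Sgk1, a kinase gene at log2 0.14 (adjusted p = 0.0844, called by DESeq2), shows the motif (chr10:21993640-21993939, + strand), printed 5′ to 3′ with the match in capitals.
Sgk1: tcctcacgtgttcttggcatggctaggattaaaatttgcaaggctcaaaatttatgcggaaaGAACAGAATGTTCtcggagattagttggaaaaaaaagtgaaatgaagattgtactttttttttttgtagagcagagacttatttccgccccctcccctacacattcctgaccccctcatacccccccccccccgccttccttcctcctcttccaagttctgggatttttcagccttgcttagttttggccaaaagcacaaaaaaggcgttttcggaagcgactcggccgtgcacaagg

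Interferon response genes were higher with Topsym at day 1 for 9 of 24 tested and lower for 0 (median log2 0.89). Irf7, the transcription factor that amplifies type I interferon (chromosome 7, 141262706 to 141266481), stood at 419 and 406 normalised reads without Topsym and 1365 and 1309 with it (log2 1.69, SE 0.13, adjusted p = 1.58e-07). Oasl2, an oligoadenylate synthetase-like gene, stood at 530 and 552 normalised reads without Topsym and 1389 and 1400 with it (log2 1.36, SE 0.12, adjusted p = 1.4e-06). Ifit3, which encodes a protein that binds viral RNA complexes, stood at 281 and 291 normalised reads without Topsym and 834 and 759 with it (log2 1.47, SE 0.23, adjusted p = 0.000367), and Oas1a, an oligoadenylate synthetase, at 139 and 111 normalised reads without Topsym and 333 and 336 with it (log2 1.42, SE 0.23, adjusted p = 0.000715). In all 4 genes both Topsym libraries lay above both others, which their choice from the called members made likely. Oas3 of the leading genes, also an oligoadenylate synthetase, stood at 87.4 and 94.9 normalised reads without Topsym and 366 and 397 with it (log2 2.05, SE 0.23, adjusted p = 1.53e-05). Without each library in turn 7 to 8 members were called.

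The same genes differed more between the arms at day 0. There 23 of 24 members were higher with Topsym (10.8% of all genes tested) and the median was 2.04. In the test of the difference between the effects at day 1 and day 0, 15 of the 24 had a smaller effect at day 1 and 0 a larger one. Over all genes tested 3307 (17.2%) passed that test, 1761 upward (9.18%) and 1546 downward (8.06%). At day 0 Irf7 had 424 and 467 normalised reads without Topsym and 3304 and 3357 with it. The difference of its effects was -1.21 (SE 0.18, adjusted p = 0.000129). Summed over the list, the libraries held 7590 and 7515 normalised reads at day 1 without Topsym and 12362 and 12054 with it.

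The interferon motif, GAAA repeated after any 2 bases, was searched on both strands. It stood in 11 of 19 matched members of the list (57.9%) and in 5 of the 8 that were called, against 501 of 12990 genes (3.86%), 39 of 816 called higher (4.78%), 22 of 602 called lower (3.65%) and 1131 of all 32851 promoters (3.44%). A match is a description and not a site. The promoters of Ifit3 (chr19:34583279-34583578, + strand) and Oas1a (chr5:120907476-120907775, - strand) are printed because they belong to the called members with the largest differences among those that held the motif, with the matches in capitals. In Oas1a 2 matches overlap.
Ifit3: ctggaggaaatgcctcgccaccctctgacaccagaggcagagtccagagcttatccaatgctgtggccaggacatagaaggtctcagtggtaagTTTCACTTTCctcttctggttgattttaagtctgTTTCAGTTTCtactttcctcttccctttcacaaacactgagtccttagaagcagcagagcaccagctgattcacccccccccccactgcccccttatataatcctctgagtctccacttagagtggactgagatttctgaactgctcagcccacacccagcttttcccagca
Oas1a: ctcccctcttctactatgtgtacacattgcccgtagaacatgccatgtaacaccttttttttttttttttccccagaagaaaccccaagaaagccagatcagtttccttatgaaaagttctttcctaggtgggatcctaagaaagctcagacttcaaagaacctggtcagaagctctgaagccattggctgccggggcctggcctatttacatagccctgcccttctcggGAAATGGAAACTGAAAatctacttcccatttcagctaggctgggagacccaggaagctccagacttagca

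Macrophage and monocyte genes were higher with Topsym for 15 of 22 tested and lower for 1 (median log2 0.79). Ly6c2, a marker of inflammatory monocytes with a near copy in Ly6c1, stood at 10.7 and 15.9 normalised reads without Topsym and 63.8 and 71.9 with it (log2 2.29, SE 0.43, adjusted p = 0.00223). Itgam, the integrin also called CD11b, stood at 570 and 484 normalised reads without Topsym and 1201 and 1193 with it (log2 1.19, SE 0.19, adjusted p = 0.000622). Adgre1, an adhesion receptor that marks macrophages, stood at 1016 and 891 normalised reads without Topsym and 1749 and 1837 with it (log2 0.91, SE 0.12, adjusted p = 9.82e-05). Clec10a, a lectin of dermal macrophages, stood at 3412 and 3426 normalised reads without Topsym and 6301 and 6455 with it (log2 0.90, SE 0.08, adjusted p = 9.91e-07). All of these groups stood apart. The hemoglobin scavenger receptor gene Cd163 rose by 0.86, the mannose receptor gene Mrc1 by 0.81 and the lysozyme gene Lyz2 by 0.73, while Arg1, arginase of repair macrophages, fell by 0.30, a call lost without any 1 of the 4 libraries. The summed list stood at 58398 and 56459 normalised reads without Topsym and at 96442 and 96398 with it. At day 0, 19 of the 22 members were higher with Topsym and 1 was lower (11.2% of all genes were lower there).

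Complement genes, many of which macrophages make, rose for 10 of 19 and fell for 2 (median log2 0.51). C1qa, C1qb and C1qc belong to both this list and the macrophage list, so the 2 counts are not separate results. C1qa, a chain of the first complement component, stood at 6497 and 5967 normalised reads without Topsym and 11386 and 11136 with it (log2 0.85, SE 0.07, adjusted p = 3.43e-07), and Cfp, properdin, at 1689 and 1593 normalised reads without Topsym and 3322 and 3070 with it (log2 0.96, SE 0.08, adjusted p = 1.05e-06). The groups did not overlap in either. Serping1, the C1 inhibitor, fell by 0.30 and Masp1, a lectin pathway protease, by 0.65, the latter a call lost without any 1 of the 4 libraries. Of 17 neutrophil genes 3 were higher and 0 lower (median log2 0.10), and 1 to 2 higher without each library. Mmp8, a neutrophil collagenase, stood at 2.91 and 6.72 normalised reads without Topsym and 52.3 and 40.2 with it (log2 3.09, SE 0.55, adjusted p = 0.00133). Retnlg, a resistin-like gene of neutrophils, stood at 0.971 and 3.36 normalised reads without Topsym and 9 and 21.7 with it (log2 2.36, SE 0.52, adjusted p = 0.00776), with a call lost without SDS_D1 replicate 1, without SDS_D1_Topsym replicate 2 and with only the 4 libraries fitted. Ltf, lactoferrin, had 0 reads without Topsym and 10 with it, at least 2.943-fold higher, and its call was lost without any 1 of the 4 libraries. The calprotectin genes S100a8 and S100a9 stood at log2 -0.29 and -0.12 (adjusted p = 0.356 and 0.643), and Ly6g had 0 reads.

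Genes of antigen presentation went the other way. MHC class II genes were lower with Topsym for 5 of 9 tested and higher for 1 (median log2 -0.65). H2-Ab1, a class II beta chain (chromosome 17, 34257689 to 34269419), stood at 15695 and 15164 normalised reads without Topsym and 8794 and 8884 with it (log2 -0.80, SE 0.05, adjusted p = 5.5e-08). Cd74, the invariant chain, stood at 42839 and 38886 normalised reads without Topsym and 26132 and 25797 with it (log2 -0.65, SE 0.05, adjusted p = 2.65e-07). H2-Eb1 fell by 0.73, H2-Aa by 0.72 and H2-DMb1 by 0.65, whereas the protease gene Ctss, which trims the invariant chain and is also a macrophage gene, rose by 0.33. The calls of H2-DMb1 and Ctss were lost without at least 1 of the 4 libraries. The summed list went from 90569 and 85097 normalised reads to 56274 and 56094, with no overlap. At day 0, 0 of the 9 were lower and 1 was higher with Topsym, and 6 of the 9 effects were lower at day 1 than at day 0 in the test of the difference.

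Of 15 dendritic and Langerhans cell genes 4 fell and 0 rose (median log2 -0.55), a count that was 2 without each library in turn. Ccr7, the receptor that guides dendritic cells to lymph nodes (chromosome 11, 99144196 to 99155077), stood at 61.2 and 63.8 normalised reads without Topsym and 11.5 and 14.7 with it (log2 -2.18, SE 0.40, adjusted p = 0.00183). Its Topsym libraries lay far below the others. Itgax, the integrin also called CD11c, stood at 387 and 385 normalised reads without Topsym and 239 and 243 with it (log2 -0.68, SE 0.19, adjusted p = 0.0283), with a call lost without any 1 of the 4 libraries. Epcam, an adhesion gene that Langerhans cells share with follicle keratinocytes, fell by 0.50. Cd207, langerin of Langerhans cells, stood at 536 and 484 normalised reads without Topsym and 353 and 341 with it and did not pass (log2 -0.55, adjusted p = 0.173), although both count tests on recovered reads and the fit of the 4 libraries alone called it. T cell and NK cell genes had a median of -0.53, but 0 of 19 passed in either direction with limma, 4 being lower at an unadjusted p under 0.05, while edgeR and DESeq2 on recovered reads each called 5 lower. Trac, the T cell receptor alpha constant gene, stood at 60.2 and 46.2 normalised reads without Topsym and 21.3 and 24.0 with it (log2 -1.19, adjusted p = 0.145) and was called by both count tests.

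Of 14 MHC class I and antigen processing genes 5 were lower and 0 higher (median log2 -0.19), and 3 to 4 were lower without each library. They were H2-Q4, H2-Q6 and H2-Q7, which are near copies of one another, Nlrc5, the class I transactivator, and H2-K1, at log2 values of -0.57 to -0.19, and the calls of H2-Q7 and H2-K1 were lost without at least 2 of the 4 libraries in turn. At day 0, 13 of the 14 were higher with Topsym, and 12 effects were lower at day 1 than at day 0. Of 11 mast cell genes 1 fell (9.09%, beside 4.29% of all genes tested) and 0 rose (median log2 -0.22). It was the connective tissue mast cell protease gene Mcpt4, which stood at 1379 and 1248 normalised reads without Topsym and 676 and 673 with it (log2 -0.96, SE 0.11, adjusted p = 2.62e-05). Of 7 B cell genes tested (median log2 0.20) 1 was lower and 0 higher, Blnk, an adaptor that other cells also express (log2 -0.37), and its call was lost without SDS_D1 replicate 1 or either Topsym library.

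CC and lymphocyte chemokines passed in both directions, with 4 of 23 tested higher and 7 lower (median log2 -0.47). Beside Ccl17, the second Ccr4 ligand Ccl22 stood at 690 and 682 normalised reads without Topsym and 412 and 397 with it (log2 -0.76, SE 0.12, adjusted p = 0.000612). Cxcl9, an interferon gamma target that draws T cells, stood at 30.1 and 14.3 normalised reads without Topsym and 1.64 and 1.55 with it (log2 -3.07, SE 0.60, adjusted p = 0.003), with a call lost without SDS_D1 replicate 1. Ccl27a, a keratinocyte chemokine for skin T cells, fell by 0.74. The members that rose were Ccl6, at 4997 and 4793 normalised reads without Topsym and 10178 and 10263 with it (log2 1.06, SE 0.08, adjusted p = 3.06e-07), Cxcl13, which draws B cells (log2 1.13), Ccl9 (log2 0.71) and Ccl8 (log2 0.70, a call lost without any 1 of the 4 libraries). The groups of Ccl6 stood apart. Of 6 CXC chemokines for neutrophils tested the platelet factor gene Pf4, which macrophages also express, was higher (log2 1.02) and 0 were lower (median log2 -0.51). Cxcl2 stood at 24.3 and 30.2 normalised reads without Topsym and 20.4 and 18.6 with it (log2 -0.46, adjusted p = 0.491).

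Of 18 targets and inhibitors of NF-kB and STAT3 8 fell and 1 rose (median log2 -0.22), a count of lower members that was 2 to 6 without each library in turn. Relb, a subunit of the alternative NF-kB pathway, stood at 729 and 675 normalised reads without Topsym and 380 and 478 with it (log2 -0.72, SE 0.12, adjusted p = 0.00087). Nfkb2, its partner, stood at 1421 and 1377 normalised reads without Topsym and 1034 and 976 with it (log2 -0.48, SE 0.06, adjusted p = 4.58e-05). Both groups stood apart. Icam1, an adhesion receptor for leukocytes, fell by 0.64 and Tnfaip3, the brake also called A20, by 0.35, and these calls were lost without SDS_D1 replicate 1 and without either Topsym library, that of Tnfaip3 also without SDS_D1 replicate 2 and with no filter. Bcl3, a cofactor of NF-kB, rose by 0.35, a call lost without any 1 of the 4 libraries. The inhibitor gene Nfkbia, also a glucocorticoid target, stood at log2 -0.13 (adjusted p = 0.231).

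Of 16 interleukin 1 family genes tested 2 were higher and 5 lower (median log2 -0.08), and the lower ones numbered 2 to 4 without each library in turn. Il33, an alarmin of stromal and epithelial nuclei, stood at 652 and 802 normalised reads without Topsym and 464 and 505 with it (log2 -0.58, SE 0.09, adjusted p = 0.000643). Il1a, an alarmin of keratinocytes, stood at 556 and 553 normalised reads without Topsym and 397 and 366 with it (log2 -0.54, SE 0.11, adjusted p = 0.00406). The call of Il33 was lost with only the 4 libraries fitted and that of Il1a without SDS_D1_Topsym replicate 2. Il1b stood at 159 and 122 normalised reads without Topsym and 128 and 133 with it and overlapped (log2 -0.10, adjusted p = 0.811). Tnf, a master cytokine of inflammation, stood at 61.2 and 78.9 normalised reads without Topsym and 32.7 and 34.0 with it (log2 -1.04, SE 0.24, adjusted p = 0.00909), and its call was lost without SDS_D1 replicate 2, without either Topsym library and with only the 4 libraries fitted. Tnf and Il34 were the 2 lower genes of 17 other cytokines tested, 0 being higher (median log2 -0.07). Il34, a ligand of the receptor Csf1r that Langerhans cells need, fell by 0.45, a call lost without any 1 of the 4 libraries. Of 14 acute phase genes tested 3 were higher and 2 lower (median log2 0.12), with 1 to 2 of each without each library in turn. They were led by haptoglobin, Hp, at 3112 and 2952 normalised reads without Topsym and 6629 and 6628 with it (log2 1.13, SE 0.10, adjusted p = 9.25e-07).

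Among genes known from the epidermis, members of each list described here moved in both directions. Stress keratins and alarmins were higher for 5 and lower for 5 of 22 tested (median log2 -0.13). Krt17, a keratin of activated and follicular keratinocytes (chromosome 11, 100256217 to 100261029), stood at 30871 and 27644 normalised reads without Topsym and 16253 and 16451 with it (log2 -0.84, SE 0.05, adjusted p = 3.43e-08). Lce3c, a late cornified envelope gene of disturbed barriers, stood at 639 and 609 normalised reads without Topsym and 1151 and 1192 with it (log2 0.91, SE 0.10, adjusted p = 9.07e-06), and Lce3f, a near relative, at log2 1.00, lost without SDS_D1 replicate 2 or either Topsym library. Krt17 and Lce3c thus stood apart in opposite directions. Serpinb3a had 7 reads without Topsym and 0 with it, at least 2.643-fold lower. SDS_D1 replicate 2 held most of these (0.971 and 5.04 normalised reads), and the call was lost without it, without either Topsym library, with a pseudocount of 4 and with only the 4 libraries fitted. Krt6a, the classical wound keratin, stood at 4233 and 4037 normalised reads without Topsym and 3710 and 3827 with it and did not pass (log2 -0.13, adjusted p = 0.317). The lower members numbered 2 to 4 without each library in turn.

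Of 17 antimicrobial and protease inhibitor genes 7 fell and 1 rose (median log2 -0.31), and 4 to 5 were lower without each library in turn. Slpi, the secretory leukocyte protease inhibitor (chromosome 2, 164354070 to 164389095), stood at 879 and 846 normalised reads without Topsym and 429 and 395 with it (log2 -1.07, SE 0.09, adjusted p = 4.13e-07). Wfdc21 stood at 592 and 625 normalised reads without Topsym and 208 and 232 with it (log2 -1.47, SE 0.15, adjusted p = 5.22e-06). The beta-defensin gene Defb14 was the one higher member (log2 0.73), a call lost without SDS_D1 replicate 1 or either Topsym library. Lcn2, lipocalin 2, stood at log2 -0.17 (adjusted p = 0.247) and was called lower by both count tests.

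Cornified envelope and differentiation genes were higher for 7 and lower for 11 of 29 (median log2 -0.10), with 7 to 8 lower without each library in turn. Rptn, repetin, stood at 750 and 677 normalised reads without Topsym and 1365 and 1437 with it (log2 0.97, SE 0.07, adjusted p = 1.55e-07). Hrnr, hornerin, stood at 3764 and 4333 normalised reads without Topsym and 6266 and 6234 with it (log2 0.63, SE 0.06, adjusted p = 5.41e-06). Casp14, a caspase of cornification, rose by 0.65, the transglutaminase gene Tgm3 by 0.63 and Krt1 by 0.59. The lower members included Lce1m (-0.54), Cdsn, corneodesmosin (-0.31), and Flg2 (-0.24, a call lost without 3 of the 4 libraries in turn), while Krt10 overlapped between the groups (log2 -0.04). Rptn and Hrnr had gone the other way at day 0, and the differences of their effects were 1.72 (SE 0.10, adjusted p = 3.2e-09) and 1.79 (SE 0.09, adjusted p = 4.11e-10). Barrier lipid genes were higher for 2 and lower for 2 of 19 (median log2 0.04), with 0 to 2 higher and 0 to 1 lower without each library. Degs2, which makes phytoceramides, had the largest difference, at 91.3 and 127 normalised reads without Topsym and 247 and 242 with it (log2 1.18, SE 0.27, adjusted p = 0.00993), and its call was lost without SDS_D1 replicate 1 or either Topsym library.

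Of 15 basal keratinocyte and hemidesmosome genes 8 fell and 1 rose (median log2 -0.19). Col17a1, the hemidesmosomal collagen (chromosome 19, 47646344 to 47692094), stood at 49799 and 48800 normalised reads without Topsym and 36474 and 36541 with it (log2 -0.43, SE 0.04, adjusted p = 5.31e-07). Itgb4, the integrin beta 4 chain, stood at 8460 and 8077 normalised reads without Topsym and 6345 and 6439 with it (log2 -0.37, SE 0.05, adjusted p = 3.49e-05). The groups of both genes were separate at differences well under 2-fold. Lama3, a chain of the basement membrane laminin, fell by 0.53 and Cd44, a hyaluronan receptor, by 0.39, and Krt5 stood at log2 -0.19, a call lost without SDS_D1 replicate 1 and without either Topsym library. Plec, plectin, which striated muscle also expresses, was the higher member (log2 0.24, a call lost without SDS_D1 replicate 2). Among 8 EGF family ligands 3 were higher and 2 lower (median log2 -0.07), with 0 to 1 higher without each library, and Nrg1, at 118 and 119 normalised reads without Topsym and 41.7 and 31.7 with it (log2 -1.68, SE 0.24, adjusted p = 0.000211), had the largest difference. Of 19 eicosanoid genes 1 was higher and 1 lower (median log2 0.02), Alox5ap (log2 0.73) and Alox8 (-1.84), and both calls were lost without any 1 of the 4 libraries.

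Collagen chains were higher with Topsym for 11 of 20 and lower for 2 (median log2 0.42), and the number of higher members was unchanged without each library in turn. The layer of the whole skin that these reads came from was not tested. Col3a1, a fibrillar collagen (chromosome 1, 45311538 to 45349706), stood at 24540 and 24663 normalised reads without Topsym and 42997 and 42888 with it (log2 0.80, SE 0.05, adjusted p = 9.28e-09). Col1a1, the main collagen chain of skin (chromosome 11, 94936224 to 94953042), stood at 42028 and 39872 normalised reads without Topsym and 61932 and 61717 with it (log2 0.59, SE 0.05, adjusted p = 1.3e-06). Neither gene's groups overlapped. Col5a2 rose by 0.76 and Col5a3 by 0.79. Col23a1, a membrane-bound collagen of epithelia, fell by 0.76 and Col7a1, the anchoring fibril collagen, by 0.15, the latter a call lost without any 1 of the 4 libraries, with no filter and with a robust variance prior. The summed list stood at 163115 and 158911 normalised reads without Topsym and at 230636 and 229339 with it, and 12 of its 20 members were higher with Topsym at day 0 as well.

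Of 24 fibroblast and dermal matrix genes 4 rose and 3 fell (median log2 -0.05), and 0 were lower without each library in turn. Lox, which crosslinks collagen, rose by 0.64 and Sparc, which binds it, by 0.40. The proteoglycan gene Dcn, decorin, fell by 0.19, a call lost without any 1 of the 4 libraries. Wound matrix genes were higher for 4 and lower for 4 of 22 tested (median log2 -0.05), with 2 higher and 1 to 3 lower without each library in turn. Ccn2, a target of TGF-beta and YAP, stood at 2196 and 2098 normalised reads without Topsym and 1467 and 1428 with it (log2 -0.57, SE 0.13, adjusted p = 0.00923). Its call was lost without SDS_D1 replicate 1 and without either Topsym library. Of 17 endothelial genes 3 were higher and 0 lower (median log2 0.32), Vwf, Flt1 and Plvap, at log2 0.40 to 0.72, with calls that were lost without 3 or 4 of the 4 libraries in turn. Lyve1, a hyaluronan receptor of lymphatic vessels and of macrophages, was the 1 of 7 lymphatic genes that passed (median of the list 0.08), at 3019 and 2874 normalised reads without Topsym and 6090 and 6228 with it (log2 1.06, SE 0.08, adjusted p = 1.01e-07), while the lymphatic regulator Prox1 stood at log2 0.17 (adjusted p = 0.907).

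Striated muscle RNA was higher with Topsym. Skeletal muscle genes were higher for 17 of 19 tested and lower for 0 (median log2 0.68), and 15 to 16 were higher without each library in turn. Ttn, titin (chromosome 2, 76703980 to 76982547), stood at 24613 and 27214 normalised reads without Topsym and 46463 and 47461 with it (log2 0.86, SE 0.07, adjusted p = 4.66e-07). Myh2, a fast oxidative myosin, stood at 3255 and 2972 normalised reads without Topsym and 6059 and 5949 with it (log2 0.95, SE 0.06, adjusted p = 3.01e-08). Myh7, the slow myosin, stood at 0.971 and 2.52 normalised reads without Topsym and 40.1 and 65.0 with it (log2 4.30, SE 0.96, adjusted p = 0.00797), a call lost without SDS_D1 replicate 1 and without SDS_D1_Topsym replicate 2. Each of these genes had both Topsym libraries above the others. The summed list stood at 436156 and 430662 normalised reads without Topsym and at 652061 and 658097 with it. Of 12 smooth muscle and pericyte genes 1 was higher, Des, desmin, which striated muscle also expresses (log2 0.72), and 1 lower, Smtn, smoothelin (-0.41), with a median of -0.11. Muscle regeneration genes were higher for 7 of 9 tested and lower for 0 (median log2 1.15).

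Ankrd1, a titin-binding stress protein (chromosome 19, 36111961 to 36120099), stood at 205 and 185 normalised reads without Topsym and 860 and 866 with it (log2 2.14, SE 0.22, adjusted p = 7.09e-06). Myod1, the myogenic master factor, stood at 31.1 and 18.5 normalised reads without Topsym and 93.2 and 125 with it (log2 2.13, SE 0.44, adjusted p = 0.00442), a call lost without SDS_D1 replicate 2 and without SDS_D1_Topsym replicate 2. Ankrd2 stood at 1874 and 1757 normalised reads without Topsym and 4275 and 4148 with it (log2 1.21, SE 0.07, adjusted p = 1.03e-08). The Topsym libraries were above the others in all 3 genes. Of 15 muscle wasting genes tested 5 were higher and 0 lower (median log2 0.05), and 2 to 3 were higher without each library. Trim63, a ubiquitin ligase of muscle that glucocorticoids induce, stood at 9789 and 9200 normalised reads without Topsym and 11576 and 11641 with it (log2 0.29, SE 0.06, adjusted p = 0.00542), and its call was lost without replicate 2 of either group. At day 0 all 19 muscle genes were lower with Topsym, and all 19 effects were higher at day 1 than at day 0. The sources used here do not say how much striated muscle was taken with each skin sample. Its part in the results on genes that muscle also expresses was not tested.

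Of 20 immediate early genes 9 rose and 4 fell (median log2 0.23). Atf3, a stress-induced factor, stood at 610 and 543 normalised reads without Topsym and 1523 and 1399 with it (log2 1.34, SE 0.15, adjusted p = 1.19e-05). Fosb stood at 401 and 338 normalised reads without Topsym and 835 and 805 with it (log2 1.15, SE 0.11, adjusted p = 1.93e-06), and Egr1 rose by 0.56. Nr4a1, an orphan nuclear receptor, stood at 1709 and 1627 normalised reads without Topsym and 806 and 878 with it (log2 -0.99, SE 0.10, adjusted p = 6.25e-06), against the direction of Fos and Fosb, and Nr4a3 fell by 0.80, a call lost without any 1 of the 4 libraries. Without each library in turn 6 to 9 members were higher and 1 was lower. Of 20 clock genes 6 fell and 1 rose (median log2 -0.16), led downward by Hlf, an output factor, at 784 and 831 normalised reads without Topsym and 554 and 572 with it (log2 -0.52, SE 0.08, adjusted p = 0.000621). Clock itself was the higher member (log2 0.42), a call lost without SDS_D1 replicate 1 or either Topsym library. Red blood cell genes were lower for 3 of 8 tested and higher for 0 (median log2 -0.68), among them the alpha globin gene Hba-a1, whose reads can be shared with Hba-a2, at 1938 and 1728 normalised reads without Topsym and 1122 and 1355 with it (log2 -0.57, SE 0.08, adjusted p = 0.000268), a call lost with only the 4 libraries fitted. Summed, the red blood cell list stood at 5941 and 5527 normalised reads without Topsym and at 3645 and 3987 with it. These lists can follow handling, the hour of collection and blood left in the tissue, and their part in the results was not tested.

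Genes of fat handling moved beside the muscle sums given above, whose part here was not tested. Adipocyte genes were higher for 5 of 19 tested and lower for 1 (median log2 0.27). Adipoq, adiponectin, stood at 1177 and 1070 normalised reads without Topsym and 1029 and 1096 with it and overlapped (log2 -0.08, adjusted p = 0.861), as did Lep, leptin (log2 -0.02). The higher members included Slc2a4, a glucose transporter of fat and muscle, at 1627 and 1769 normalised reads without Topsym and 2789 and 2616 with it (log2 0.67, SE 0.08, adjusted p = 2.86e-05). The fatty acid receptor gene Cd36 was another (log2 0.53). Of 22 lipolysis genes 3 were higher and 2 lower (median log2 0.17), and 1 to 2 were higher without each library. Pnpla2, the main fat lipase, stood at 9668 and 8818 normalised reads without Topsym and 12794 and 12993 with it (log2 0.48, SE 0.07, adjusted p = 0.000144). Lipe, the hormone-sensitive lipase, stood at 1829 and 1761 normalised reads without Topsym and 1902 and 2055 with it and did not pass (log2 0.14, adjusted p = 0.396). Plin5, a droplet protein of oxidative tissue, stood at log2 0.96, a call lost without any 1 of the 4 libraries.

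Fatty acid uptake genes were higher for 6 and lower for 1 of 17 (median log2 0.21), led by Fabp3, the heart and muscle fatty acid carrier, at 1039 and 975 normalised reads without Topsym and 2285 and 2181 with it (log2 1.15, SE 0.10, adjusted p = 8.17e-07). In fatty acid oxidation, 11 of 25 genes rose and 2 fell (median log2 0.21), yet only 2 to 4 were higher without each library in turn. Ppargc1a, a driver of mitochondrial growth, went the other way, at 280 and 346 normalised reads without Topsym and 147 and 164 with it (adjusted p = 0.0137), a call lost without SDS_D1 replicate 2 and without either Topsym library. Of 26 genes listed as nuclear genes of the respiratory chain 8 rose and 0 fell (median log2 0.18), and fewer rose without each library in turn. That list also holds Cs and Idh3a, which encode citric acid cycle enzymes, and Idh3a rose by 0.40. Fatty acid synthesis genes were higher for 6 and lower for 2 of 23 (median log2 0.09), and 2 to 4 were higher without each library. Acacb, the carboxylase that guards oxidation in muscle, stood at 2136 and 2260 normalised reads without Topsym and 3524 and 3558 with it (log2 0.69, SE 0.06, adjusted p = 1.3e-06). Scd3, a desaturase of sebocytes, stood at 2119 and 2088 normalised reads without Topsym and 1183 and 1062 with it (log2 -0.91, SE 0.12, adjusted p = 9.86e-05), the opposite direction.

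In cholesterol synthesis, 9 of 23 genes rose and 0 fell (median log2 0.21), with 3 to 5 higher without each library. Hsd17b7, an enzyme of the later pathway, stood at 601 and 664 normalised reads without Topsym and 887 and 950 with it (log2 0.54, SE 0.08, adjusted p = 0.000164). Idi1 rose by 0.45, a call lost without either Topsym library. At day 0 the list had been lower with Topsym for 15 of 23 members, and 16 effects were higher at day 1 than at day 0. Of 22 glycolysis and hypoxia genes 7 rose and 3 fell (median log2 -0.05), with Aldoa, an aldolase of muscle and other tissues, at log2 0.43 and Pfkl at -0.38. Heat shock and protein stress genes were higher for 7 and lower for 2 of 18 (median log2 0.07), and 4 to 5 were higher without each library. Of 13 genes of the mitochondrial genome 1 was higher, mt-Co1 (log2 0.27, a call lost without SDS_D1 replicate 1 or either Topsym library), and 0 lower (median log2 0.16). NRF2 and oxidative stress genes were higher for 3 and lower for 2 of 20 (median log2 0.04), with Srxn1, sulfiredoxin, at 0.51 and Gpx2, a glutathione peroxidase, at -1.29, a call lost without SDS_D1_Topsym replicate 1 and with only the 4 libraries fitted. Hspa1a, an inducible chaperone whose reads can be shared with Hspa1b, rose by 0.55.

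Of 24 cytosolic ribosomal protein genes 11 fell and 0 rose (median log2 -0.20), and 4 to 10 were lower without each library in turn. Rps4x stood at 19965 and 19352 normalised reads without Topsym and 16049 and 15744 with it (log2 -0.31, SE 0.05, adjusted p = 0.000565) and Rpl5 at 15683 and 15583 normalised reads without Topsym and 13115 and 12765 with it (log2 -0.27, SE 0.04, adjusted p = 0.000167). The differences were small, and the groups did not overlap in these genes. At day 0 all 24 were higher with Topsym, and all 24 effects were lower at day 1 than at day 0.

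Lists of the hair follicle held 0 to 4 called members in each direction. Of 16 hair follicle stem cell genes 2 were higher and 2 lower (median log2 -0.14), and 0 to 2 were higher without each library. The surface marker gene Cd34, which vessels also express, rose by 0.42, a call lost without replicate 1 of either group, and Lrig1 fell by 0.33. Lgr5, the receptor of cycling follicle stem cells, stood at 108 and 123 normalised reads without Topsym and 91.6 and 85.8 with it (log2 -0.37, adjusted p = 0.911). Of 32 hair cycle signal genes tested 1 was higher and 4 lower (median log2 -0.17), and 0 were higher and 1 to 3 lower without each library. Dkk3, a Dickkopf family gene, stood at 421 and 431 normalised reads without Topsym and 255 and 246 with it (log2 -0.77, SE 0.10, adjusted p = 7.91e-05). Fgf5, which ends hair growth, had 20 reads without Topsym and 2 with it (ratio 11.3, 95% counting interval 2.75 to 100), and its call was lost without SDS_D1 replicate 1, without SDS_D1_Topsym replicate 2, with only the 4 libraries fitted and with edgeR. Of the counts from 1 to 20 in these libraries 70.3 to 71.1% were even, so reads were not independent of each other and such an interval is too narrow. Hair shaft and root sheath genes gave 0 calls among 22 tested with limma, edgeR or DESeq2 (1 had an unadjusted p under 0.05 with limma, median log2 -0.05), and 6 of these had 0 reads in all 4 libraries.

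Of 23 S phase genes 4 fell and 0 rose (median log2 -0.20), and 2 to 4 without each library. Mcm6, a subunit of the replicative helicase, stood at 904 and 1026 normalised reads without Topsym and 683 and 680 with it (log2 -0.50, SE 0.07, adjusted p = 9.81e-05). G2 and M phase genes were higher for 1 and lower for 2 of 23 (median log2 -0.05), with 0 to 1 lower without each library. Mki67, the proliferation marker, stood at 1538 and 1534 normalised reads without Topsym and 1355 and 1260 with it (log2 -0.23, SE 0.06, adjusted p = 0.027), a call lost without either library of SDS alone, without SDS_D1_Topsym replicate 2, with no filter and with only the 4 libraries fitted. Of 14 cell cycle inhibitors and p53 targets 2 were higher, Ccng1 (log2 0.59) and Cdkn1a (0.21), and 1 lower (median log2 -0.04). Sebaceous gland genes were lower for 4 of 19 tested and higher for 1 (median log2 -0.10), among them Krt79 of the follicle and gland duct (log2 -0.48) and Acsbg1 (-0.47). Retinoid genes were higher for 2 and lower for 1 of 17 tested (median log2 -0.05), with the retinoic acid carrier Crabp2 at log2 0.45. Pigment cell genes gave 0 calls among 7 tested with limma, edgeR or DESeq2 (0 at an unadjusted p under 0.05 with limma, median log2 0.22). Of 12 nerve and Schwann cell genes 1 rose and 0 fell (median log2 0.18).

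**Figure D3:**
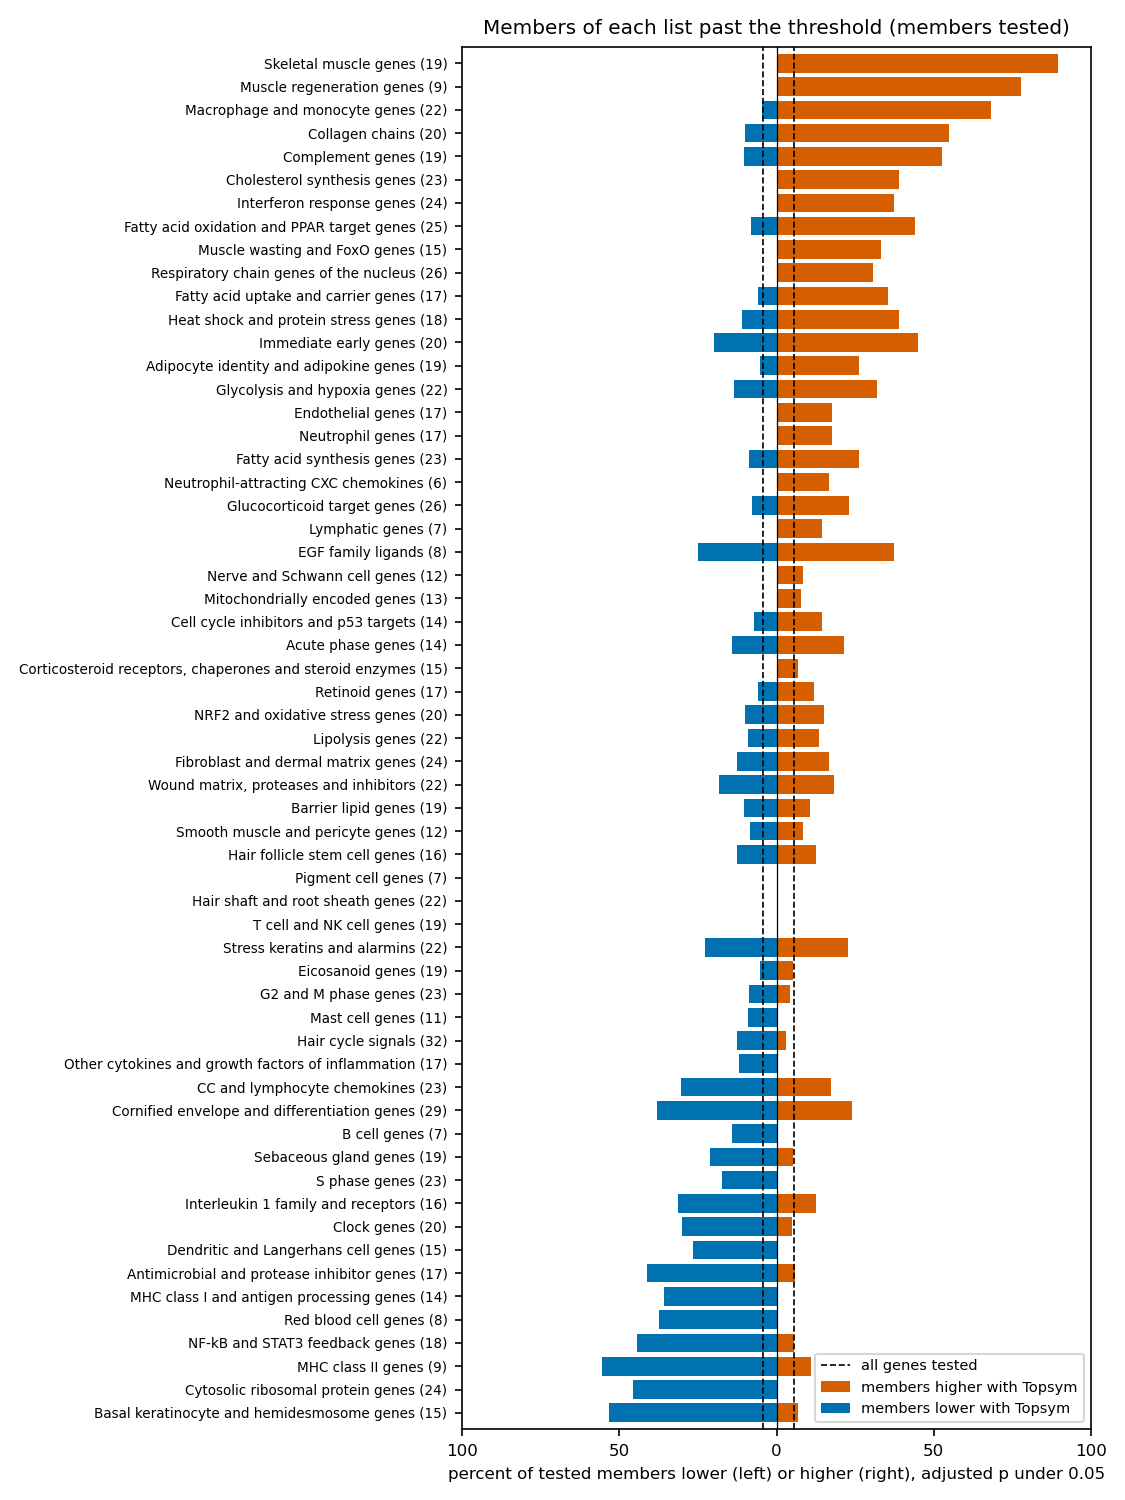
Bars give, for each of 59 lists (members tested in brackets), the percent of tested members that were higher (orange, right) or lower (blue, left) with Topsym at day 1 at an adjusted p under 0.05 of limma, sorted by their difference. Dashed lines mark the shares of all genes tested, 5.51% and 4.29%. Skeletal muscle, muscle regeneration and macrophage genes stand at the top, and basal keratinocyte, ribosomal protein and MHC class II genes at the bottom.

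The direction at day 1 often differed from that at the neighbouring days. Of the 1058 genes higher with Topsym at day 1, 356 (33.6%, which is 17.2% of the genes higher at day 0) were also higher at day 0, 433 (40.9%) were lower there and 269 did not pass, beside 10.8 and 11.2% of all genes tested. At day 3, 221 of the 1058 (20.9%, or 5.53% of the genes higher at day 3) were higher and 603 (57%) were lower, beside 20.8 and 22.9% of all genes tested. Of the 823 genes lower at day 1, 229 (27.8%, or 5.2% of the genes lower at day 3) were lower and 372 (45.2%) were higher at day 3, beside 22.9 and 20.8% of all genes. At day 0, 170 of the 823 (20.7%, or 7.88% of the genes lower at day 0) were lower and 169 (20.5%) were higher, beside 11.2 and 10.8% of all genes. At day 5, 360 of the 1058 were higher (34%, or 8.3% of the genes higher at that day) and 404 lower (38.2%), beside 22.6 and 24.2% of all genes tested, and 325 of the 823 were lower (39.5%, or 7.01% of the genes lower at that day) and 258 higher (31.3%). The 4 days share no libraries, but they do share the fitted spread.

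**Figure D4:**
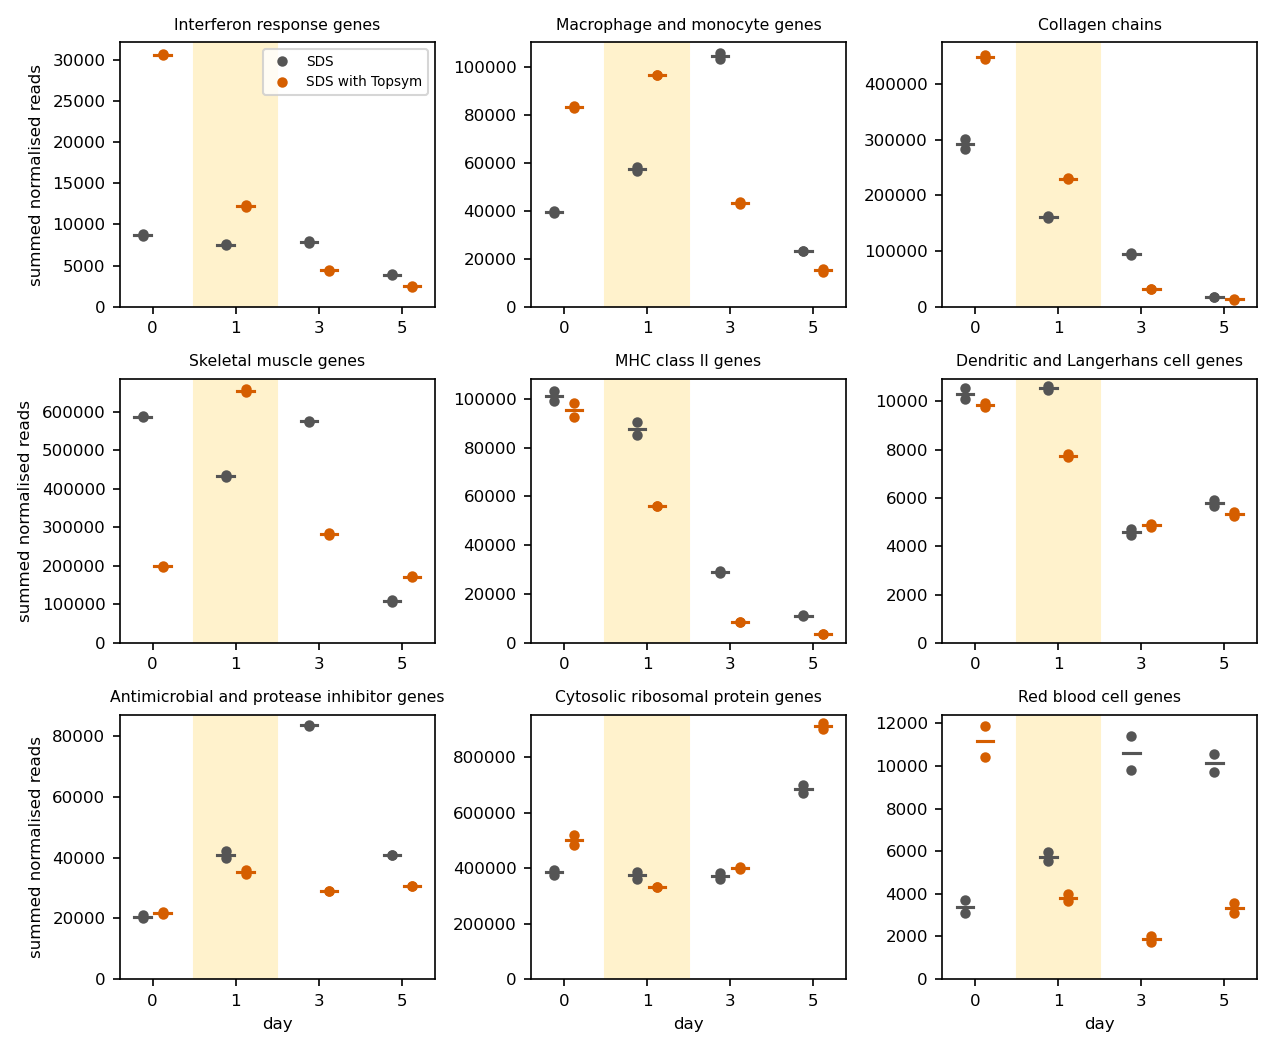
Each point is the summed normalised reads of 1 list in 1 of the 16 libraries, by day, with SDS alone in grey and SDS with Topsym in orange, and each short line is the mean of 2 libraries. Day 1 is shaded: there the interferon, macrophage, collagen and muscle sums lie higher with Topsym, and the MHC class II, dendritic cell, antimicrobial, ribosomal protein and red blood cell sums lie lower, while the muscle, ribosomal protein, red blood cell and antimicrobial sums lie the other way round at day 0.

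For interferon, macrophage and collagen genes, Topsym lay above SDS alone at days 0 and 1 and below it at day 3. For skeletal muscle, Topsym lay below SDS alone at day 0, above it at day 1 and below it at day 3. MHC class II sums overlapped neither at day 0 nor later, but lay close together at day 0 and far lower with Topsym at days 1, 3 and 5. The median difference over the list was -1.50 for MHC class II, -1.48 for macrophage and -1.37 for collagen genes at day 3.

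Effects of Topsym at day 1 and day 0 differed most upward in Mup10, Myh7, Mrgprg, Capn11 and Ankrd1 and most downward in follicle genes, among genes averaging at least 100 in some group whose arms did not overlap at day 1. The difference was 6.91 (adjusted p = 0.000775) for Capn11, 4.97 (SE 0.32, adjusted p = 9.33e-09) for Ankrd1 and 8.44 (SE 1.36, adjusted p = 0.000307) for Myh7. Mrgprg, a receptor gene of the Mrgpr family, stood at 126 and 149 normalised reads without Topsym and 237 and 319 with it at day 1. At day 0 it had 272 and 248 normalised reads without Topsym and 0 and 6.5 with it, and the difference of its effects was 7.57 (SE 0.78, adjusted p = 2.82e-06). Mup10, which has many near copies, had 0 reads in both libraries of SDS alone and 442 and 0.773 normalised reads in the Topsym ones, so that 1 library carried it. In Tchh, trichohyalin of the inner root sheath, and in Krt27, a keratin of that sheath, the arms did not pass at day 1 (log2 -0.23 and 0.48, adjusted p = 0.313 and 0.85) after large differences at day 0 (4.55 and 8.12). Tchhl1 (-6.52), Krt87 (-4.19) and Prr9 (-7.94) completed the downward differences. Prr9 had 15 reads without Topsym and 3 with it at day 1 (ratio 5.66, 95% counting interval 1.60 to 30.5, which is too narrow because reads were not independent).

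Against day 3, 6683 genes (34.8%) differed in their effect, and against day 5, 6710 (35.0%). Genes of myeloid cells led the differences from day 3 upward: Chil3 at 8.35, Retnlg at 10.42, Mmp8 at 9.08, Ly6c2 at 6.99 and Treml2, a receptor of myeloid cells, at 7.05. Nrg1 (-3.48), Pglyrp2 (-3.76), Has3, a hyaluronan synthase (-3.06), Pclaf, a replication factor (-3.28), and Sprr2a3 (-3.81) led downward. Sprr2a3 had 5 reads without Topsym and 0 with it at day 1, at least 1.888-fold lower. From day 5, Chil3 (6.72), Mmp8 (5.84), Rgs1 (5.77), Ifi206 (5.04) and Npy1r (5.04) differed most upward. Thrsp, a regulator of fat synthesis (-4.71), Nmrk2, a muscle enzyme of NAD synthesis (-4.66), the water channel gene Aqp5 (-3.76), Igfbp2 (-3.56) and Arc (-3.23) differed most downward. Of these, the day 1 difference itself passed the threshold for Chil3, Retnlg, Mmp8, Ly6c2, Ifi206, Nrg1, Pglyrp2, Has3, Sprr2a3, Igfbp2 and Arc. That of Has3 and Arc was lost without SDS_D1_Topsym replicate 2, that of Igfbp2 without replicate 1 of either group, and that of Sprr2a3 without 3 of the 4 libraries in turn and with both count tests.

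**Figure D5:**
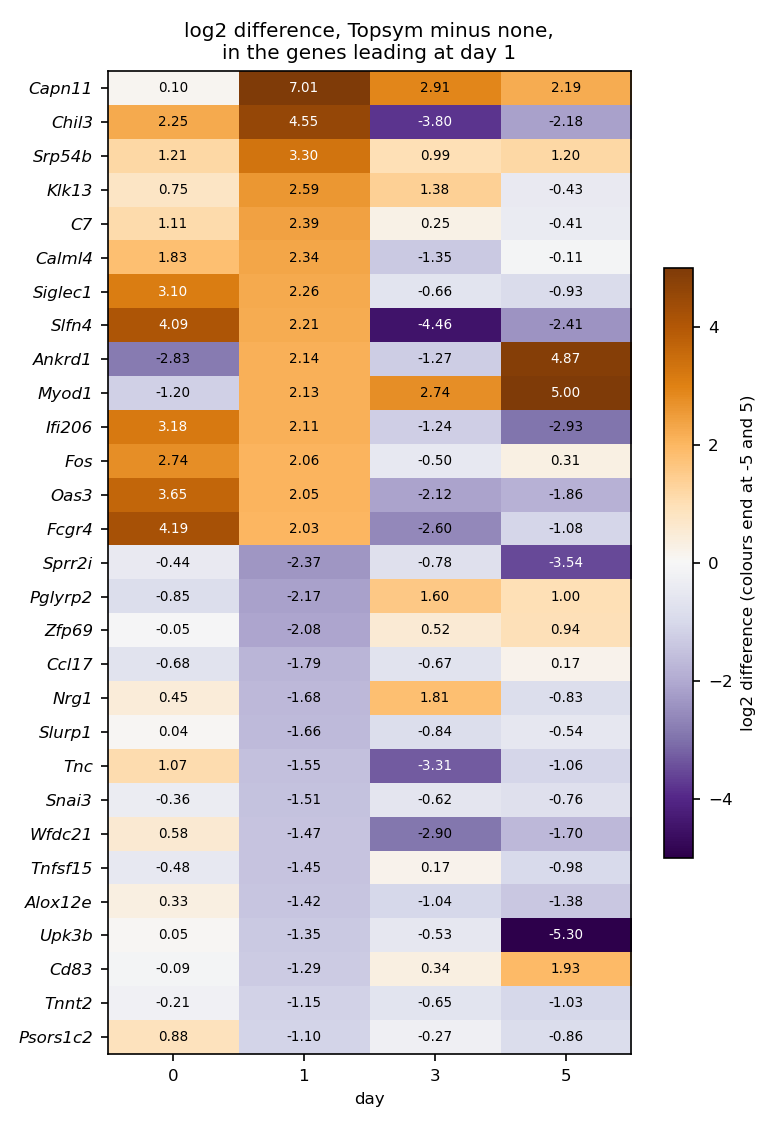
Colours and printed values give the log2 difference, Topsym minus none, at days 0, 1, 3 and 5 (columns) for the 14 largest rises and the 15 largest falls at day 1 (rows), with orange for higher and purple for lower with Topsym and the colour scale ending at 5 in either direction. Interferon and macrophage genes are orange at days 0 and 1 and purple at day 3, and Ankrd1 and Myod1 are purple at day 0 and orange at days 1 and 5.

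The other motifs searched in promoters, on both strands, were AP-1 (TGANTCA), NF-kB (GGGAA and CC with any 3 bases between them), SREBP (TCACNCCAC) and the D-box of clock outputs (TTATNNAA). AP-1 letters stood in 965 of 12990 matched genes (7.43%), in 89 of 816 called higher (10.9%) and in 69 of 602 called lower (11.5%). NF-kB letters stood in 1043 of all (8.03%), in 67 of those called higher (8.21%) and in 67 of those called lower (11.1%). SREBP letters stood in 195 (1.5%), 16 (1.96%) and 9 (1.5%), and D-box letters in 1126 (8.67%), 78 (9.56%) and 55 (9.14%). In the whole table of 32851 promoters the shares were 7.81% for AP-1, 5.78% for NF-kB, 1.24% for SREBP and 12% for the D-box.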

How the data were processed

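RNA-seq of whole mouse skin was made with an Agilent SureSelect strand-specific kit, per the labels' protocols. Per the submitters' processing notes, Trim Galore 0.6.7, HISAT2 2.2.1, featureCounts 2.0.3, DESeq2 2.11.40.8 and the build mm10 were used, and the sources used here do not state the strand setting of counting. The deposited values are a signal, gene counts divided by a size factor of each library. All values (100% within 0.0001) were whole multiples of what 1 read is worth, which gave back the reads and the depth. Genes reaching 10 in 2 or more of the 16 libraries were tested (19189 of 32078) with limma 3.58.1 in R 4.3.3 on log2(value + 1), 8 groups of 2 libraries sharing 1 estimate of the spread, at a Benjamini-Hochberg adjusted p of 0.05. Both group replicates differed by more than counting noise. On simulated data the fit recovered 61.2% of genes changed 1.5-fold, 70.1% at 2-fold and 87.9% at 4-fold, with 3.95% of calls false (18863 genes). These shares rest on 67, 67 and 66 changed genes and 6 false calls. Genes of low level were not changed, and counts were drawn independently, unlike the real ones. The simulation therefore does not give the error rate of the real comparison.

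edgeR 4.0.16 and DESeq2 1.42.0 on recovered reads, another pseudocount, no filter, TMM scaling, only the 4 libraries, a robust prior, a replicate block, each library left out and a 2-fold size were the alternatives. Named genes were the 15 largest rises and falls that passed the threshold, averaged 100 or more in the higher group and did not overlap, 5 each way for each test between days, the 4 largest called members of each list and a set of followed genes. Some genes that met the rule are not reported here. Other genes named were chosen after their values were seen. The comparison and the 59 lists were chosen with earlier results of these data known. Floors are 3 reads over the group, and 95% intervals cover counting error only. Most low counts were even, so reads were not independent and intervals and floors are too narrow. Near copies (Sprr2, Lce, Ly6c, H2-Q, Mup and globin genes) may share reads.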

Additional observations from a re-analysis of the deposited data

Results flagged for a closer look

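The effect of Topsym, the log2 difference of Topsym minus none, differed between day 1 and another day by limma's test of the difference itself in the genes given here, each value being the effect at day 1 minus that at the other day. Against day 0 it was larger or more positive at day 1 in Mup10 (10.44), Myh7 (8.44), Mrgprg (7.57), Capn11 (6.91) and Ankrd1 (4.97). It was smaller or more negative in Prr9 (-7.94), Krt27 (-7.64), Tchhl1 (-6.52), Tchh (-4.78) and Krt87 (-4.19). Of these genes only Myh7, Capn11 and Ankrd1 passed the threshold at day 1 itself. Mup10 rested on 1 library, with 442 and 0.773 normalised reads under Topsym.

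Against day 3 the effect at day 1 was higher in Retnlg (10.42), Mmp8 (9.08), Chil3 (8.35), Treml2 (7.05) and Ly6c2 (6.99), which are mostly genes of myeloid cells. It was lower in Sprr2a3 (-3.81), Pglyrp2 (-3.76), Nrg1 (-3.48), Pclaf (-3.28) and Has3 (-3.06). Against day 5 it was higher in Chil3 (6.72), Mmp8 (5.84), Rgs1 (5.77), Ifi206 (5.04) and Npy1r (5.04) and lower in Thrsp (-4.71), Nmrk2 (-4.66), Aqp5 (-3.76), Igfbp2 (-3.56) and Arc (-3.23).

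Among the genes with the largest changes at day 1, the difference between the effects at day 1 and day 0 passed the test in Chil3 (2.30), Klk13 (1.85), Slfn4 (-1.87), Myod1 (3.33), Fos (-0.68), Oas3 (-1.60), Fcgr4 (-2.16), Sprr2i (-1.93), Pglyrp2 (-1.32), Zfp69 (-2.04), Nrg1 (-2.13), Slurp1 (-1.69), Tnc (-2.61), Snai3 (-1.15), Wfdc21 (-2.04), Alox12e (-1.74), Tnnt2 (-0.94) and Psors1c2 (-1.98). In Chil3, Klk13 and Myod1 the value was higher at day 1, and in Slfn4, Fos, Oas3 and Fcgr4 the rise with Topsym was smaller at day 1 than at day 0.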

How the results depend on the processing

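With 2 libraries a group the count of calls rested on each library. Leaving out 1 of the 4 gave 921 to 1260 calls in place of 1881, 554 to 728 higher in place of 1058 and 348 to 532 lower in place of 823. The lowest counts of all calls and of lower calls were those without SDS_D1_Topsym replicate 1. The lowest count of higher calls was that without SDS_D1_Topsym replicate 2. All 3 counts were highest without SDS_D1 replicate 2. A lone library was then assumed to vary like the other groups. Of the 30 leading genes 24 to 26 kept their call in these fits, and none of the 30 changed direction under any alternative run, although DESeq2 gave Capn11 no adjusted p (log2 9.60). A minimum size of 2-fold left 218 calls, 143 higher and 75 lower, and left 907, 2682 and 2331 for the differences of the effect from those at days 0, 3 and 5. edgeR on recovered reads called 2524 genes, 1237 of them lower, and DESeq2 called 2642. The cause of these shifts in counts was not tested, beyond fewer libraries or a higher size being required. TMM scaling called 1902 genes, and the share of higher ones was 49.7% in place of 56.2%. A pseudocount of 4 called 1964, no filter 1634, only the 4 libraries 1617 and a robust prior 1912. Every call shared with these fits kept its direction, and none of the 25 list medians of at least 0.2 in size changed sign under the alternatives run, while 4 of the 34 smaller ones did, none above 0.1. Of 91 list counts above 0, 57 moved by over 1.5 times without some library. With a replicate block 1762 genes were called and 30 of the 30 leading genes were kept. Deviations of same-numbered libraries correlated at 0.012 here and at -0.031 to 0.03 over 28 pairs of groups. These correlations gave no sign that the numbers pair the libraries, and they cannot show that no pairing exists.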

Other observations

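Beside the lists, genes chosen after their values were seen showed a set of muscle stress and attachment genes. Flnc, filamin C of the Z-disc and costamere, stood at 12061 and 12035 normalised reads without Topsym and 33947 and 34624 with it (log2 1.51, SE 0.05, adjusted p = 7.62e-11). Mustn1, a small nuclear protein of muscle and tendon, stood at 1525 and 1448 normalised reads without Topsym and 4679 and 4824 with it (log2 1.68, SE 0.06, adjusted p = 7.62e-11). Xirp1 and Xirp2, actin-binding proteins of the myotendinous junction, both rose, Xirp1 at log2 1.42 and Xirp2 with 13642 and 13747 normalised reads under Topsym (adjusted p = 7.34e-08). The small heat shock genes Cryab and Hspb7 rose by 1.30 and 1.31. Klhl40, which steadies thin filaments, rose by 1.75 and Mybph, a myosin binding protein, by 1.66. Each of these log2 differences was above the median of 0.68 of the skeletal muscle list, and genes picked for their size are no test of that.

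A second set, also chosen after its values were seen, holds genes known from resident dermal macrophages. Cd209f stood at 811 and 795 normalised reads without Topsym and 2277 and 2136 with it (log2 1.46, SE 0.20, adjusted p = 0.000147). Cbr2, a carbonyl reductase, stood at 2326 and 2224 normalised reads without Topsym and 5412 and 5400 with it (log2 1.25, SE 0.09, adjusted p = 1.25e-07). Cd209b rose by 1.30, Cd209g by 1.26, a call lost without SDS_D1_Topsym replicate 2, the ficolin gene Fcna by 1.24, the folate receptor gene Folr2 by 1.06 and F13a1, a transglutaminase subunit, by 1.08. Ms4a8a, a membrane gene of alternatively activated macrophages, rose by 1.62. No library of the Topsym group overlapped with the others in Cd209f or Cbr2.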
